A study of Mus musculus with 14 samples.

Results

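The cytosolic ribosome of the mouse heart was followed through the mRNAs of its proteins. Members were the protein-coding genes whose symbols begin with Rpl or Rps and a digit, together with Rplp1, Rplp2 and Rpsa. S6 kinases, pseudogenes and Rplp0 were left out, and a mean of at least 100 counts over the 14 libraries was required. The rule left 80 of 51912 genes. They were 42 large-subunit proteins, 31 small-subunit proteins, the 2 acidic stalk proteins Rplp1 and Rplp2, 4 paralogues (Rpl3l, Rpl22l1, Rpl7l1 and Rps27l) and Rps19bp1, which carries the prefix but encodes a protein that binds the small-subunit protein RPS19 rather than a ribosomal protein. Just inside the count limit lay Rpl13a with a mean of 111.9 counts and Rps19bp1 with 143.4. The nearest genes outside it lay far below, Rps27rt with 17.79 and Rpl24 with 6.071.

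Each ribosome carries, with few exceptions, a single copy of each of its proteins, and cells keep the supply of these proteins in balance. Many of the mRNAs begin with a tract of pyrimidines, the terminal oligopyrimidine or TOP motif, through which the mTORC1 pathway sets their translation, so that output can change without a change of mRNA. A growing heart muscle cell needs more protein synthesis, and new ribosomes are part of hypertrophic growth. Muscle also makes RPL3L, a form of the large-subunit protein RPL3 that is restricted to heart and skeletal muscle and takes its place in the ribosome.

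The data were poly(A) RNA counts from hearts of C57BL/6J mice, either wild type or Clk3 knockout (KO; CLK3 is a kinase that phosphorylates splicing factors), after a sham operation or TAC. TAC is the usual abbreviation of transverse aortic constriction, which narrows the aorta and loads the left ventricle. There were 4 wild-type sham, 4 KO sham, 2 wild-type TAC and 4 KO TAC libraries. Libraries 1 and 2 of each sham group came from mice aged 11 weeks and the other 10 libraries from mice aged 10 weeks. How the knockout was made, whether whole hearts were taken and how long the load lasted were not given in the sources used here.

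Gene counts ran from 11385818 to 20369637 per library. Clk3 stood at 73.2 to 96.0 CPM (gene counts made comparable between libraries of unlike depth) in 5 of the 6 libraries labelled wild type and at 50.7 to 67.4 CPM in the 8 KO libraries. The library labelled wild-type TAC 1 had 54.2 CPM, within the KO range. It also had 66.8 CPM of the pseudogene Gm8730, which stood between 57.4 and 67.1 CPM in KO, while the 5 remaining wild-type libraries had 1.26 to 1.63 CPM. Its label was kept, and the wild-type TAC results that the text turns on are given with and without it. Among those that rest on both wild-type TAC libraries are the fit with a GC correction and the tests of single genes between the TAC effects. The 8 cardiomyocyte markers summed to 35275 CPM or more in every library, and the 4 atrial myocyte markers to 5.05 CPM or less. Of all counts, those outside annotated features made up 14.3 to 17.6% in wild-type sham, 17.1 to 19.0% in KO sham, 10.7 and 14.9% in wild-type TAC and 12.3 to 14.3% in KO TAC.

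The ribosomal protein mRNAs took up between 1.23 and 1.61% of all gene counts. In wild-type sham hearts their share was 1.61, 1.24, 1.39 and 1.23% in libraries 1 to 4. In KO sham hearts it was 1.33, 1.32, 1.33 and 1.42%. After TAC it was 1.48 and 1.37% in wild type and 1.47, 1.42, 1.48 and 1.39% in KO. In KO the lowest TAC value lay below the highest sham value, and in wild type the TAC values lay inside the sham range. The mean share was 1.07 times as high after TAC as after sham in KO and 1.04 times in wild type, and 1.00 times in wild type without the library labelled wild-type TAC 1. Because these are bulk samples, fewer cells of a type and less RNA per cell cannot be told apart.

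Counts inside coding sequence made up 97.5 to 97.9% of the members' counts in every library. The lowest shares of single members were 1.40% for Rpl13a, 56.1% for Rpl7l1, 66.1% for Rpl22 and 68.2% for Rpl15. Rpl13a encodes a large-subunit protein known for silencing inflammatory mRNAs after it leaves the ribosome. Its values describe its untranslated sequence almost alone.

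Levels can be compared between genes only per length, here as CPM per kilobase of the main transcript. On this scale Rplp1 was highest at 639, followed by Rps14 at 491 and Rps15 at 478. Rplp1 forms, with Rplp2, the flexible stalk that recruits translation factors, and the other two belong to the small subunit. Rpl13a was lowest at 7.07, followed by Rps19bp1 at 11.3 and the small-subunit gene Rps20 at 39.2. The ranges over libraries of Rplp1 and Rps14 overlapped (502 to 765 and 358 to 586), but within each single library Rplp1 stood above Rps14. Among the paralogues Rpl22l1 stood at 75.1 and Rpl7l1 at 49.6, both in the lowest 5. Many members share sequence with other genes, and how reads from shared sequence were counted is not stated. Over the members, the share of 50-base windows of the main transcript also found in another gene had a median of 55.5% and reached 98.6% for Rps27. It was 85.6% for Rpl3, shared with 26 genes, and 0% for Rpl3l. Across the members, Spearman's rho between this share and the level per length was 0.20.

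**Figure D1:**
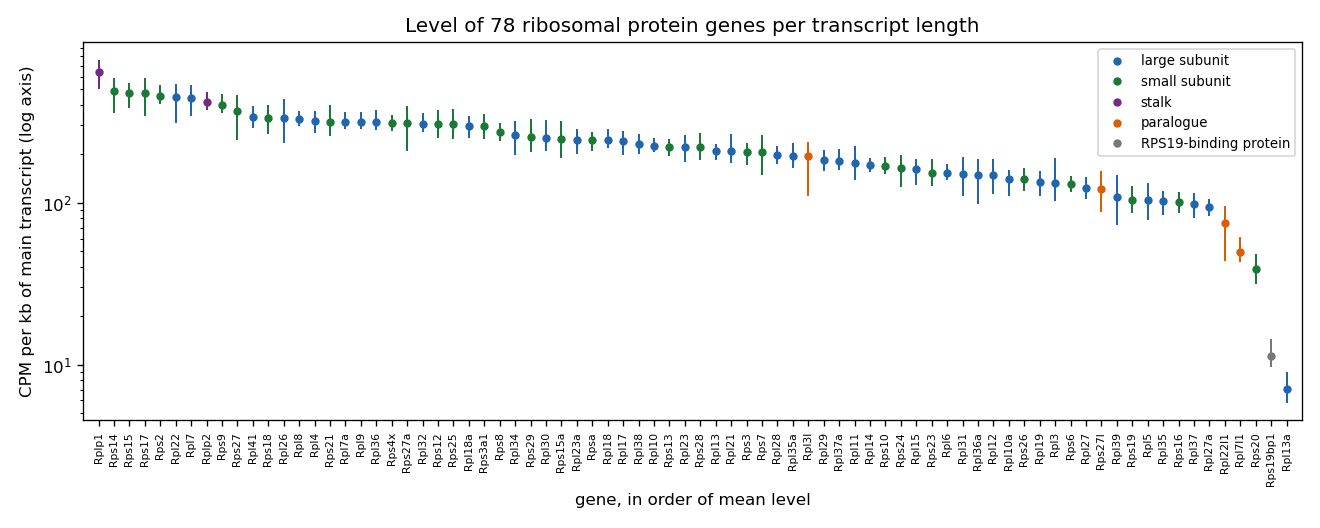
Mean level of 78 of the 80 genes over 14 libraries in CPM per kilobase of the main transcript (log axis), with lines from the lowest to the highest library and colour by class. The levels fall gradually from Rplp1 at 639 at the top, with Rps20, Rps19bp1 and Rpl13a at 39.2, 11.3 and 7.07 at the bottom. The place of Rps20 depends on its main transcript of 3706 bases, of which 357 are coding.

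The start sites show what the members share beyond their names. RefSeq promoters (GRCm38.p6) were at hand for 60 of 80 members, not for Rpl3 or Rpl29. For each gene only the window of its outermost start was taken, which need not be its most used start. The pyrimidine motif CTTTC on the sense strand, within 50 bases either side of the start, was found in 28 of them (46.7%), against 12.6% of all promoters compared. On the antisense strand the shares were 11.7% and 11.8%. CCGGAAG, the core of ETS-family sites, occurred on either strand of the 300-base window in 24 of 60 members and 9.14% of all promoters, and the TATA-type motif TATAAA, on either strand within 50 bases of the start, in 6.67% and 5.15%. A match is a description of letters and no site of binding.

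The 50 bases from 30 before the start are shown for the members with the smallest p after TAC that have an entry, for Rpl4 as the member of highest CPM and for Rpl3l as the one that fell, with CTTTC in capitals.
Rpl28: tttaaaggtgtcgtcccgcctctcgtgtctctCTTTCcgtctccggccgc
Rpl18: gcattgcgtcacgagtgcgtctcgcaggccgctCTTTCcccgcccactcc
Rps16: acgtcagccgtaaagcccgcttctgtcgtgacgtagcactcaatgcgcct
Rps26: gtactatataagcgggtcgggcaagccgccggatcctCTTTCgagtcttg
Rpl4: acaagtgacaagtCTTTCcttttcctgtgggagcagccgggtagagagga
Rpl3l: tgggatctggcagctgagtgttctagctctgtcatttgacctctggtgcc
They lie at chr7:4792935-4792984 (Rpl28), chr7:45718041-45718090 (Rpl18), chr7:28350659-28350708 (Rps16), chr10:128626487-128626536 (Rps26), chr9:64173357-64173406 (Rpl4) and chr17:24727796-24727845 (Rpl3l), on the forward strand except Rps26. CTTTC stands after the start in Rpl28, Rpl18 and Rps26 and before it in Rpl4, and these letters are in neither the Rps16 nor the Rpl3l window.

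Across single libraries the members moved together. After each group's mean was removed, the median correlation between 2 members over the 14 libraries was 0.88, and 95.6% of the 3160 pairs were positive. The points share library, depth and base composition, so this is a description only. Rpl3l and Rpl7l1 stood apart, with median correlations of -0.20 and -0.17 with the other members, and Rpl13a had 0.20. The highest value, 0.94, was that of the large-subunit gene Rpl30.

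The common movement was widest in wild-type sham hearts. In library 1, 78 of 80 members lay above their own mean over all libraries, with a median of 0.21 on the log2 scale. In libraries 2 and 4 only 1 of 80 did, with medians of -0.20 and -0.25. The median coefficient of variation over members was 15.8% in wild-type sham, 3.82% in KO sham and 5.73% in KO TAC. Rpl22l1 (36.5%) and Rpl39 (32.7%) varied most in wild-type sham, and Rpl7l1 (5.52%) least. Rpl39 encodes a very small large-subunit protein at the exit tunnel.

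The 513 other protein-coding genes with main transcripts under 800 bases had medians of 0.17, -0.13 and -0.13 in the same 3 libraries, in the direction of the members. Over the members the coefficient of variation in wild-type sham was lower at higher GC content of the transcript (Spearman's rho -0.45) and at greater length (rho -0.31). The part of base composition and length in the spread was not tested.

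**Figure D2:**
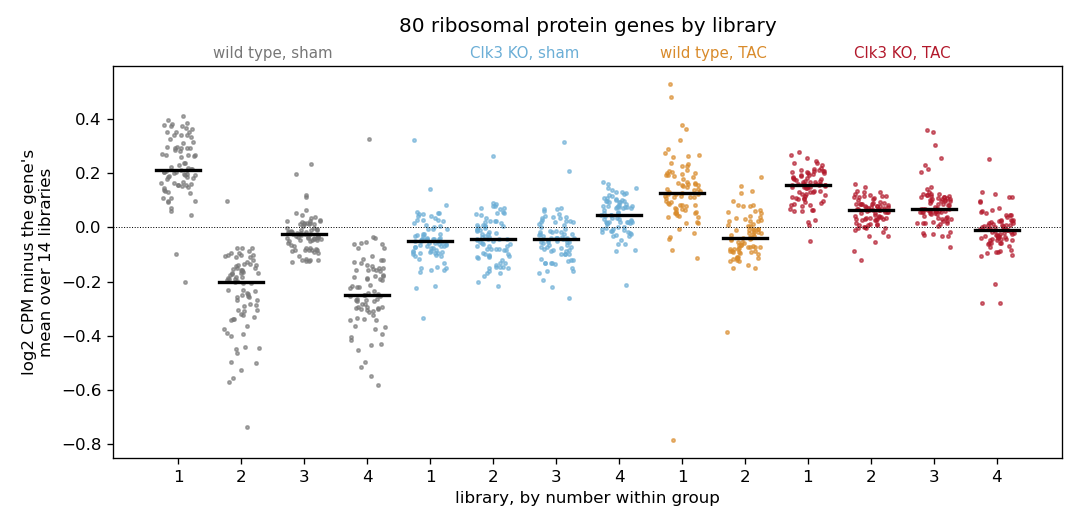
Each point is 1 of 80 genes in 1 library, as log2 CPM minus that gene's mean over the 14 libraries, and black bars are medians. Wild-type sham library 1 sits high and libraries 2 and 4 sit low, while the KO sham libraries lie close together.

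TAC was compared with sham in each genotype first, since the study asked about Clk3 in cardiac hypertrophy. In wild type, Rpl3 rose and its muscle paralogue Rpl3l fell, and no other member passed the test. Of the members, 72 of 80 had a positive difference, with a median log2 change of 0.11 beside -0.0023 over all 15651 genes tested. The 1 member called higher compares with 6.91% of all genes called higher, and the 1 called lower with 5.30% called lower. Without the library labelled wild-type TAC 1, 50 of 80 were positive, the median was 0.016 and no member was called. Without wild-type sham 1, 14 members were called, 13 of them higher, among them Rps27a, Rplp1 and Rps14. The shares of all genes above are those of the fit with all libraries. That of the fit without wild-type sham 1 is not given here, so its 14 calls stand without a background.

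Rpl3, which lies at the entrance to the catalytic centre of the large subunit, had 184, 152, 161 and 150 CPM in wild-type sham hearts. The library labelled wild-type TAC 1 had 253 CPM and wild-type TAC 2 had 200 CPM. Both TAC values lay above all 4 sham values. The difference was 0.48 ± 0.11 (log2 ± SE), a 1.40-fold rise (edgeR's quasi-likelihood test, Benjamini-Hochberg adjusted p = 0.00704). Without the library labelled wild-type TAC 1 it was 0.30 with an adjusted p of 0.208. With only the 2 wild-type groups in the fit the adjusted p was 0.0594.

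In KO hearts Rpl3 had 139, 162, 151 and 151 CPM after sham and 192, 177, 206 and 209 CPM after TAC. The groups did not overlap. The difference was 0.38 ± 0.09, a 1.30-fold rise (edgeR, adjusted p = 0.0133). It stayed past the threshold when each KO library was left out in turn, but not in the 10-week libraries alone, with 2 KO sham libraries (adjusted p = 0.128), nor with the share of reads outside features as a covariate, which left no gene called (0.504).

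Rpl3l had 293, 280, 284 and 328 CPM in wild-type sham hearts. The library labelled wild-type TAC 1 had 151 CPM and wild-type TAC 2 had 246 CPM, both below every sham value. The difference was -0.58 ± 0.14, a 1.49-fold fall (edgeR, adjusted p = 0.0155). Without the library labelled wild-type TAC 1 it was -0.27, with an adjusted p of 0.279. With only the 2 wild-type groups in the fit the adjusted p was 0.0812.

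In KO hearts Rpl3l had 288, 266, 302 and 289 CPM after sham and 252, 263, 256 and 215 CPM after TAC. All TAC values again lay below all sham values, but the difference of -0.22 ± 0.11 did not pass (edgeR, adjusted p = 0.224). With only the 2 KO groups in the fit it was -0.22 and passed.

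The ratio of Rpl3l to Rpl3 per transcript length shows the pair in 1 number. It was 1.81 ± 0.24 (SD, n = 4) in wild-type sham, 1.87 ± 0.19 (n = 4) in KO sham and 1.24 ± 0.18 (n = 4) in KO TAC. The library labelled wild-type TAC 1 had 0.587 and wild-type TAC 2 had 1.21. The highest TAC ratio, 1.46 in KO TAC, lay below the lowest sham ratio, 1.56 in wild-type sham. In both genotypes the muscle form thus had more counts per length after sham. After TAC Rpl3 had more only in the library labelled wild-type TAC 1. Which mRNA was the more abundant cannot be told from this, since how reads from shared sequence were counted is not stated. The part of the windows that Rpl3 shares with other genes in the absolute ratio was not tested.

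**Figure D3:**
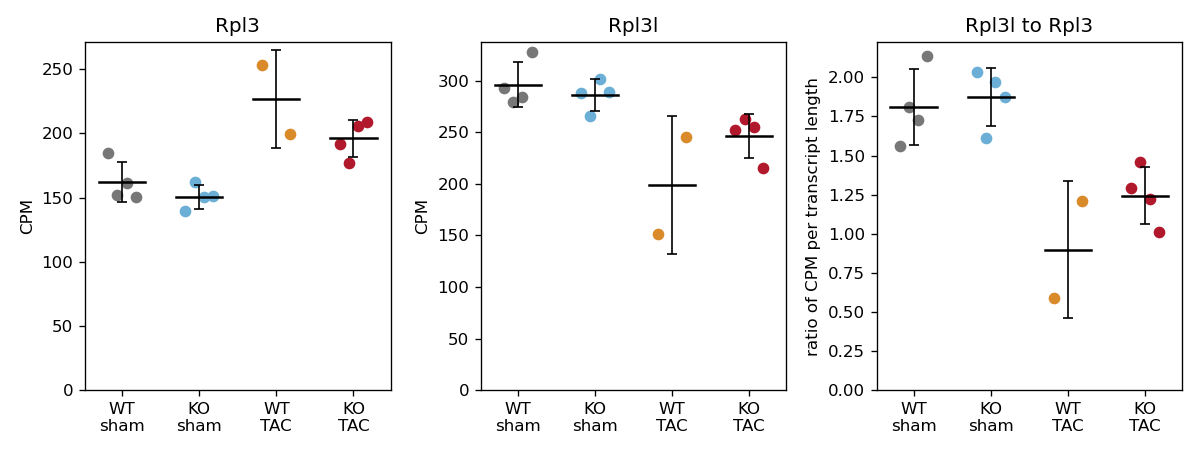
CPM of Rpl3 and of Rpl3l, and the ratio of their CPM per transcript length, by group; points are libraries, bars are means and whiskers are SD (4 libraries per group, 2 in wild-type TAC). Every TAC library lies above every sham library of its genotype for Rpl3 and below for Rpl3l, and the lowest ratio, 0.587, is that of the library labelled wild-type TAC 1.

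Rps27l encodes a p53-inducible form of RPS27. Its ratio to Rps27 was 0.293 to 0.312 in the KO sham libraries and 0.318 to 0.346 in KO TAC. In wild type it was 0.315 to 0.359 after sham and 0.367 and 0.386 after TAC, so that in both genotypes all TAC ratios lay above all sham ratios of the same genotype, by less than for Rpl3l and Rpl3. Of the 50-base windows of Rps27, 98.6% are shared with other genes. The ratio of Rpl22l1 to Rpl22 overlapped between sham and TAC in both genotypes, at 0.177 to 0.202 and 0.137 to 0.195 in KO and at 0.127 to 0.187 and 0.131 to 0.139 in wild type. RPL22L1 is known to compensate for loss of RPL22. None of the genes of these 2 pairs passed the test in either genotype in the fit with all libraries. With a correction for GC content and length, chosen after seeing the data, Rps27l was called higher in wild type (0.38) and KO (0.23). It was also called higher in wild type without wild-type sham 1 (0.47). Rpl39l and Rpl36al had means of 3.643 and 3.071 counts per library, too few for a ratio.

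In KO hearts 4 members rose after TAC and none fell. Among them were Rpl3, Rpl29 and Rpl28, and the 4 stand against 6.73% of all genes called higher and 6.26% called lower. A positive difference was found in 68 of 80 members, with a median log2 change of 0.10 beside -0.0053 over all genes tested. In 21 members all 4 TAC libraries lay above all 4 sham libraries against 10.6% of all genes, and in 1 member, Rpl3l, all lay below (11.2% of all genes did). In wild type 5 members lay wholly above sham (16.4% of all genes did) and 1, Rpl3l, wholly below (14.2%).

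Rpl29, a basic protein on the outer face of the large subunit, had 96.4, 91.8, 97.5 and 101 CPM in KO sham hearts and 123, 118, 116 and 111 CPM in KO TAC hearts. The groups did not overlap, and the difference was 0.28 ± 0.06 (edgeR, adjusted p = 0.011). In wild type Rpl29 had 114, 101, 97.8 and 101 CPM after sham and 114 and 117 CPM after TAC, narrowly without overlap (0.16 ± 0.08, adjusted p = 0.196). This was 0.17 without the library labelled wild-type TAC 1 (adjusted p = 0.412).

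Rpl28 of the large subunit had 137, 133, 136 and 152 CPM in KO sham hearts and 173, 159, 163 and 157 CPM in KO TAC hearts. The difference was 0.22 ± 0.07 (edgeR, adjusted p = 0.0473), close to the threshold: leaving out any of 7 of the 8 KO libraries ended the call. Rpl18 (0.21, adjusted p = 0.0606) and Rps16 (0.24, adjusted p = 0.0642) followed, and neither overlapped between KO groups. In wild type Rpl28 had a difference of 0.069 (adjusted p = 0.664), and of 0.048 without the library labelled wild-type TAC 1 (0.886).

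Several members with well-known roles had small differences. Rps6, the substrate of the S6 kinases, had 111, 115, 116 and 124 CPM in KO sham hearts and 128, 115, 120 and 113 CPM in KO TAC hearts, which overlapped (0.029, adjusted p = 0.835). Rpl5 and Rpl11, which bind MDM2 and link faulty ribosome assembly to p53, had KO differences of -0.047 and 0.079 (adjusted p = 0.847 and 0.709). Rps19, the gene most often mutated in Diamond-Blackfan anaemia, had 0.012 (adjusted p = 0.955). Rpl4, which lines the exit tunnel, had the highest CPM of all members (414 to 565) and differences of 0.22 in wild type and 0.14 in KO (adjusted p = 0.117 and 0.221). The wild-type difference of Rpl4 was 0.17 without the library labelled wild-type TAC 1 (0.497).

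The stalk genes gave a mixed picture. Rplp1 had 300, 307, 301 and 320 CPM in KO sham hearts and 378, 332, 331 and 317 CPM in KO TAC hearts, with 1 TAC library inside the sham range. In wild type it had 363, 251, 299 and 258 CPM after sham and 382 and 326 CPM after TAC, again with overlap. Its differences were 0.14 ± 0.10 in KO and 0.27 ± 0.12 in wild type (edgeR, adjusted p = 0.367 and 0.170), the latter 0.16 without the library labelled wild-type TAC 1 (0.687). Rplp2 had 168, 163, 168 and 173 CPM in KO sham and 187, 180, 189 and 181 CPM in KO TAC, without overlap but short of the threshold (0.13 ± 0.07, adjusted p = 0.235).

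Rps26, whose protein sits at the mRNA exit channel and can be exchanged in mature ribosomes, had 87.7, 84.5, 84.7 and 91.3 CPM in KO sham and 110, 94.9, 103 and 99.5 CPM in KO TAC. Its groups did not overlap in KO, and its differences were 0.23 ± 0.08 in KO and 0.25 ± 0.10 in wild type (edgeR, adjusted p = 0.0816 and 0.117). Rps27a, made as a fusion with ubiquitin, had 0.31 ± 0.18 in wild type and 0.073 ± 0.15 in KO (adjusted p = 0.303 and 0.787). Its wild-type sham values of 250, 133, 198 and 143 CPM spanned the TAC value of 197 CPM in wild-type TAC 2, and the library labelled wild-type TAC 1 had 252 CPM. Rpsa, also known as the laminin receptor, had 0.14 and 0.038, and X-linked Rps4x and Rpl10 had 0.051 and 0.11 in wild type and 0.071 and 0.085 in KO, with overlapping groups throughout. Without the library labelled wild-type TAC 1 the wild-type differences were 0.21 for Rps26, 0.12 for Rps27a, 0.021 for Rpsa, 0.042 for Rps4x and 0.11 for Rpl10, none of which passed.

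**Figure D4:**
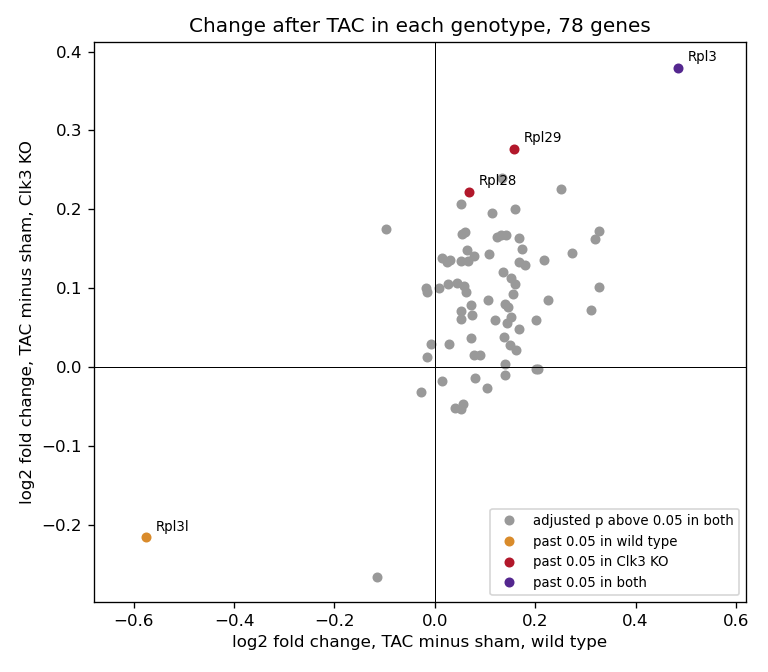
Log2 fold change after TAC in wild type (horizontal) and in KO (vertical) for 78 of the 80 genes, coloured by the genotype in which the adjusted p passed 0.05. Rpl3 is the 1 gene past the threshold in both, Rpl3l lies at -0.58 and -0.22, and most other genes lie between 0 and 0.3 in both.

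By class, 39 of 42 large-subunit and 28 of 31 small-subunit genes had a positive difference in wild type, with medians of 0.11 and 0.13. These were 22 and 23 without the library labelled wild-type TAC 1, with medians of 0.00098 and 0.036. In KO these were 38 of 42 and 25 of 31, with medians of 0.10 and 0.073. The 2 stalk genes were positive in both genotypes. The 4 paralogues divided, with 2 positive and 2 negative in each. Both held in wild type without that library. The per-library median of the members had a within-group SD of 0.13 on the log2 scale, about as large as these medians.

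Base composition moved with these comparisons. In KO, the median log2 change after TAC of all other genes ran from -0.12 for transcripts under 45% GC to 0.096 for those over 55%. For the members it ran from 0.017 (4 genes) to 0.14 (18 genes). The 4 were Rpl5, Rps20 and the paralogues Rpl22l1 and Rps27l. For Rps20 the GC content is that of a main transcript of 3706 bases, of which 357 are coding. Over the members the correlation of GC content with the log2 change was 0.40 in KO and -0.08 in wild type. A fit with a per-library correction for GC content, chosen after seeing the data, called 2 members higher in KO, among them Rpl3 (0.36). This fit called 1785 genes in all in KO and left Rpl29 at 0.18 with an adjusted p of 0.126. With a correction for GC content and length, also chosen after seeing the data, Rpl29 was at 0.21 with an adjusted p of 0.0127. In wild type the fit with the correction for GC content alone called Rpl3 (0.48) and Rpl3l (-0.60).

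**Figure D5:**
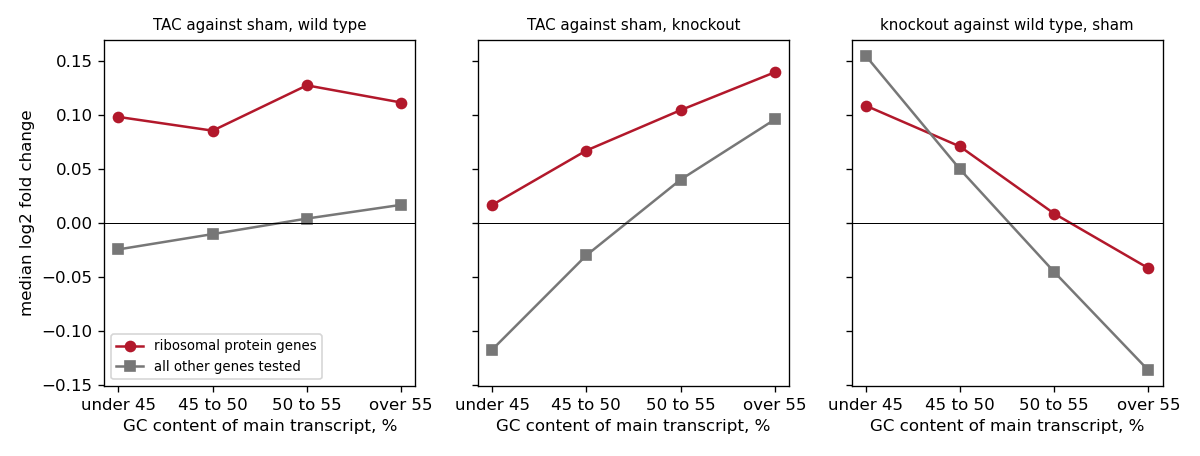
Median log2 fold change by GC content of the main transcript, for ribosomal protein genes (red) and all other genes tested (grey), in 3 comparisons. In KO the other genes climb from -0.12 to 0.096 across the bands after TAC, and in the KO against wild-type sham comparison they descend from 0.15 to -0.14, with the members following less steeply.

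Between genotypes the members did not differ by the test. In sham hearts 51 of 80 were higher in KO, with a median log2 difference of 0.046. By edgeR 0 were called at an adjusted p of 0.05, against 0.888% of all genes. At an unadjusted p under 0.05 there were 0 members, against 2817 of 15651 genes. DESeq2 called 0 members and 608 genes in all. The largest difference was that of Rpl22l1, with 52.8, 24.2, 47.5 and 28.6 CPM in wild type, where KO had 50.6, 48.5, 50.3 and 45.4 CPM (0.36 ± 0.20, adjusted p = 0.352). Wild-type sham libraries 2 and 4 were its low values, as for most members. The count of positive members moved from 25 without wild-type sham 4 to 70 without wild-type sham 1. Without the latter Rpl7 (0.33) and Rps3a1 (0.25) were called, and the share of all genes called in that fit is not given here.

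After TAC, 51 of 80 members were again higher in KO, with a median of 0.021. By edgeR 0 were called, against 1.48% of all genes, and DESeq2 called 0 members and 483 genes in all. At an unadjusted p under 0.05 there was 1 member, against 2315 of 15651 genes. The 1 was Rpl3l, at 252, 263, 256 and 215 CPM in KO TAC, where the library labelled wild-type TAC 1 had 151 CPM and wild-type TAC 2 had 246 CPM (0.31 ± 0.14, adjusted p = 0.323). Without the library labelled wild-type TAC 1, 75 of 80 members were higher in KO. Without wild-type TAC 2, 23 were higher and the Rpl3l difference was 0.70. The wild-type side is then the library labelled wild-type TAC 1 alone, whose Clk3 and Gm8730 lay within the KO ranges.

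The difference between the TAC effects of the 2 genotypes was tested directly. No member passed with edgeR, against 0.0192% of all genes, or with DESeq2, which called 37 genes in all. An unadjusted p under 0.05 was found for 1 member, against 1022 of 15651 genes. This was Rpl36 of the large subunit, whose change after TAC was 0.27 ± 0.11 higher in KO (adjusted p = 0.700). For Rpl3l the change was 0.36 ± 0.18 higher in KO (adjusted p = 0.787), so the fall of Rpl3l was not shown to differ between genotypes. The median over members was -0.023, and 35 of 80 were positive. With 1 library left out it ran from -0.13, with 17 positive (without wild-type sham 1), to 0.075, with 64 positive (without the library labelled wild-type TAC 1).

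Genes that work with the ribosome were taken from lists written with earlier results of these data known. Their counts stand beside 6.91% of all genes called higher and 5.30% called lower in wild type, and 6.73% and 6.26% in KO. Of 19 other mRNAs known to carry a TOP motif, Pabpc1, Eif3h, Vim and Eef1a1 were called higher after TAC in both genotypes and none lower, with medians of 0.12 in each. Pabpc1, the poly(A)-binding protein, changed by 0.52 ± 0.08 in wild type (edgeR, adjusted p = 0.000414) and by 0.37 ± 0.06 in KO (0.00284). Eef1a1, the factor that carries aminoacyl-tRNA to the ribosome, changed by 0.50 ± 0.07 and 0.24 ± 0.06 (0.000393 and 0.0192). Vim also marks fibroblasts and other stromal cells.

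Of 44 initiation and elongation factors, 4 were called higher and 0 lower in wild type, and 8 higher and 1 lower (Eif4a2) in KO, beside 6.91% of all genes higher and 5.30% lower in wild type and 6.73% and 6.26% in KO. Of 69 ribosome biogenesis genes, 5 were higher and 1 lower (Polr1a) in wild type and 11 higher and 0 lower in KO, beside the same shares of all genes. Nhp2, Pes1, Bop1 and Tsr1 were among the higher in both. Pes1 and Bop1 belong to the complex that processes large-subunit ribosomal RNA.

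Of 28 regulators of ribosomal protein synthesis, Myc and Eif4ebp1 were higher in both genotypes. Myc, a transcription factor that drives ribosome production, changed by 1.24 ± 0.24 in wild type and 0.86 ± 0.22 in KO (edgeR, adjusted p = 0.00288 and 0.0208), from means of 3.15 and 2.24 CPM after sham. In KO, Rps6ka1, Akt1s1 and Mycn were also higher, and Deptor and Rictor, partners of mTOR, were lower. Of 14 snoRNA host genes 1 was higher in wild type, and 1 was higher and 1 lower in KO, and of 3 partners of the 40S subunit and ubiquitin fusions none was called. The mitochondrial ribosome, a separate machine, had 0 of 77 proteins higher and 2 lower in wild type (median -0.035), and 5 higher and 0 lower in KO (median 0.043).

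Markers of non-muscle cells moved with the operation. The 8 fibroblast markers summed to 1392 to 1708 CPM in wild-type sham, 2902 and 3485 CPM in wild-type TAC, 1290 to 1458 CPM in KO sham and 1713 to 2222 CPM in KO TAC, and none of the 8 was at 0 in any group. Of these, 4 were called higher in wild type and 3 in KO. The 8 macrophage markers summed to 206 to 247, 261 and 324, 160 to 218 and 227 to 279 CPM in the same groups. Of the 8 cardiomyocyte markers, Ryr2 and Atp2a2 were lower in both genotypes. The endothelial sums overlapped between sham and TAC in each genotype, with 1 marker (Pecam1) higher in KO. The smooth muscle and pericyte, lymphocyte, erythroid and skeletal muscle lists had 0 called in wild type and 1 (Hba-a2) in KO. Without the library labelled wild-type TAC 1, when 1.98% of all genes were called higher and 1.18% lower in wild type, fewer genes of these lists were called there. Those called were Pabpc1 (0.44), Eef1a1 (0.44), Myc (1.42), Col1a1, Col3a1 and Col1a2 of the fibroblast markers and Fcgr1 of the macrophage markers, all higher. No other gene of the lists passed in wild type, the biogenesis, mitochondrial and cardiomyocyte lists included. The part of these cells in the changes of Rpl3, Rpl3l and the other members was not tested.

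Of the 7 members on chromosome 9, where Clk3 lies, Rplp1 is the nearest at 4.16 megabases, and Rpl4 and Rps27l follow at 6.42 and 9.20. In sham hearts these 3 did not pass the test between genotypes.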

How the data were processed

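Members, gene lists and tests were chosen with earlier results of these data known. The authors deposited 1 table of whole-number counts per gene for each of 14 heart libraries, with the coding and untranslated parts of each count; these are raw counts per the file headers. Per the submitters' processing notes, bcl2fastq 2.17.1.14, STAR 2.4.2a and Picard 2.10.3 were used with mm10/GRCm38; no source here states their roles, the strand setting or how reads shared by near-identical copies were counted. Rows for reads outside features (10.7 to 19.0% of all counts) and ambiguous reads (1.43 to 1.59%) stayed out of library sizes.

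Symbols, transcript lengths and GC content came from GENCODE M21 (51719 of 51912 genes matched); the main transcript has the longest coding sequence. Promoters of chromosome 18 were left out of the motif shares. Counts were tested with edgeR 4.0.16 (R 4.3.3), TMM scaling, a minimum count of 10, 1 coefficient per group over all 14 libraries, the quasi-likelihood test and Benjamini-Hochberg adjustment over 15651 genes at 0.05, in 5 comparisons; all 80 members were tested. The method was tested on simulated data. Nothing in the labels says that replicates came from separate animals; the spread that p-values measure is that between libraries and may be technical. Named members were a fixed list of well-known members and paralogues, those past the threshold or else the 5 of smallest p in each comparison, and the 3 highest and lowest per length. DESeq2 1.42.0, other scalings, filters and subsets of libraries were alternatives. Some members are not reported by name here and are left out of the plots that show single genes by name.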

Additional observations from a re-analysis of the deposited data

Results flagged for a closer look

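In groups of 4 libraries, a library whose gap to its nearest neighbour took up most of the group's range was looked for in 35 named members and the members' summed share, 108 groups in all; chance gives about 1 in 20. It was found in 4, no more than that rate gives. Rpl28 in wild-type sham 1 had 169 CPM against 140 to 143 in the others, and Rps4x, the X-linked small-subunit gene, had 337 CPM in the same library against 268 to 279. Rpl13a in wild-type sham 4 had 6.04 CPM against 6.79 to 6.92. The members' share of gene counts was 1.42% in KO sham 4 against 1.32 to 1.33%.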

How the results depend on the processing

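The number of members called depended on the libraries and the fit. In wild type it was 2 in the report, with 1912 genes called in all. It was 1 in the 10-week libraries (938 in all) and 1 without paralogues and Rps19bp1. It was 0 with the share of reads outside features as a covariate (596 in all). With only the 2 groups in the fit it was 0 (1074), and with the correction for GC content and length 6 (2373). Leaving out 1 library gave 0 (without the library labelled wild-type TAC 1) to 14 (without wild-type sham 1). In KO it was 4 in the report, with 2033 genes called in all. In the 10-week libraries it was 0, where 15 genes in all were called, and with the covariate it was 0, where no gene was. It was 2 with the GC correction (1785 in all) and 9 with the GC and length correction (1923). With only the 2 KO groups it was 12 (2772). Leaving out 1 KO library gave 3 to 5. In KO against wild type in sham hearts, leaving out 1 library gave 0 to 2. The numbers of all genes called with 1 library left out are not given in this section. The ratio of the mean Rpl3l to Rpl3 ratio, TAC to sham, was 0.497 in wild type with a range of 0.324 to 0.669 when 1 library was left out, and KO to wild type after TAC it was 1.38 with a range of 1.03 to 2.12. Other scalings, no low-count filter, DESeq2, coding counts and members with a mean of at least 1000 counts kept the number of calls within 1.5 times in all 5 comparisons, and the members' medians and share moved by less than the spread between libraries under every alternative run. With 1 library left out the median log2 change ran from 0.016 to 0.22 after TAC in wild type and from 0.073 to 0.12 in KO, and between genotypes it changed sign, from -0.028 to 0.13 in sham and from -0.063 to 0.10 after TAC. The causes were not tested. Both corrections for GC content, and the alternatives for the ratio, were chosen after seeing the data. With age as a covariate, also chosen after seeing the data, 2 members were called in KO and 2 in wild type. No paired analysis was possible because the labels carry no replicate numbers: the numbers of libraries used here follow accession order and pair nothing. With 2 wild-type TAC libraries, leaving out 1 assumes that the other varies like the other groups. At this depth every member had counts far above 0; Rpl13a and Rps19bp1 are the least precise.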
